A study of Mus musculus with 45 samples.

Results

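Elf5, Eomes, Cdx2, Tfap2c, Ets2 and Tead4 are transcription factors of trophoblast stem cells, the precursors of the placenta that persist in the extraembryonic ectoderm of the mouse embryo after implantation. The 6 genes were chosen by symbol, and all 6 had a row at each stage, out of 15997 genes listed in any of the 3 tables. The study sequenced RNA from numbered sections, cut from mouse embryos from their proximal to their distal end and collected by laser capture microdissection, at 3 stages soon after implantation (E5.25, E5.5, E5.75). The labels describe 45 untreated samples: 7 sections at E5.25, 17 pieces at E5.5 (most sections there were split into parts A and B), 19 sections at E5.75, and 2 libraries labelled VE (commonly short for visceral endoderm, the layer that wraps the embryo) from E5.75 sections 6 and 7. The labels give no strain or genotype and name 1 embryo per stage as far as they go, so the tests compare sections and not embryos. Values were available for 7 section numbers at E5.25, 9 at E5.5 and 17 at E5.75. Whether section 1 is proximal or distal is not in the labels, and positions are given by number. At E5.75, epiblast markers summed to 369 to 1043 FPKM in sections 1 to 8 and 65.0 to 227 FPKM in sections 10 to 19. Ectoplacental cone and giant cell genes summed highest in sections 18 and 19, at 2272 and 2108 FPKM. By these markers, low numbers at E5.75 are the epiblast end and high numbers the ectoplacental cone end. Each of E5.5 sections 2 to 9 has a single deposited value for its parts, used here as that section's value.

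The extraembryonic ectoderm sits on top of the cup-shaped epiblast, which makes the embryo proper, and below the ectoplacental cone, where trophoblast cells differentiate. Its stem cells depend on fibroblast growth factor 4 (FGF4) from the epiblast, received by the receptor FGFR2, and on a network of transcription factors that maintain one another. TEAD4, the DNA-binding partner of the Hippo pathway coactivators YAP1 and WWTR1, acts upstream of the homeobox factor CDX2 when the trophoblast lineage forms. The T-box factor EOMES and the ETS-family factor ELF5 act with the AP-2 family factor TFAP2C, and ETS2 is another ETS-family factor that trophoblast stem cells need.

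Promoter sequence is shown for Eomes and Cdx2, which fell together within the upper E5.75 sections, and for Elf5, whose change there did not pass the test. Each run is the 250 bases before a RefSeq start site (GRCm38.p6, the same assembly as mm10), 5′ to 3′ on the gene's strand. Capitals mark a match to 1 of 5 motifs searched on both strands.
Elf5, chr2:103423818-103424067, plus strand: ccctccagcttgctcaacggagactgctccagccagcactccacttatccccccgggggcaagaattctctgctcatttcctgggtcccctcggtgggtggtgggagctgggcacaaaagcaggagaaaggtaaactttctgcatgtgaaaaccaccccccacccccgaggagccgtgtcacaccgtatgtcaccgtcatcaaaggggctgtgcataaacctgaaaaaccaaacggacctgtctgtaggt
Eomes, chr9:118477939-118478188, plus strand: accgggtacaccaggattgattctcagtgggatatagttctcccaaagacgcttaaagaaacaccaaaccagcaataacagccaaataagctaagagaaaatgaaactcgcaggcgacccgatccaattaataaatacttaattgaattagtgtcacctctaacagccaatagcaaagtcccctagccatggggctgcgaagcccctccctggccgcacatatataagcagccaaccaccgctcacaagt
Cdx2, chr5:147307250-147307499, minus strand: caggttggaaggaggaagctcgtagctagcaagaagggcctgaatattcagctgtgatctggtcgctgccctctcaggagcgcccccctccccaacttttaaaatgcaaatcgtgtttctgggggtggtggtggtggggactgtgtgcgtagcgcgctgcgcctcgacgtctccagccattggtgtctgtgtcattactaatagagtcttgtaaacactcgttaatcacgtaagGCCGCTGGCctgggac
RefSeq entries existed for 4 of the 6 members, 5 entries in all, with Elf5 listed from 2 start sites; Tfap2c and Tead4 had none. The motifs were GGAATG (TEAD), GCCNNNGGC (AP-2), AGGTGTGA (T-box), TTTATNG (CDX) and CCGGAAGT (ETS), searched from 250 bases before to 50 after each start. Among the members' 5 windows the search found 1 AP-2 match, 16 bases before the Cdx2 start, and 1 TEAD match, 173 bases before the other Elf5 start. Of 32851 promoters of the same length, 16.6% held the AP-2 letters and 14.7% the TEAD letters. The shares were 1.3% for T-box, 10.9% for CDX and 3.9% for ETS. In the GENCODE M21 annotation of mm10, Elf5 lies on chromosome 2 from 103411688 to 103450989, Eomes on chromosome 9 from 118478212 to 118486132 and Cdx2 on chromosome 5 from 147300805 to 147307270. Tfap2c lies on chromosome 2 from 172549593 to 172558622, Ets2 on chromosome 16 from 95702075 to 95721051 and Tead4 on chromosome 6 from 128224288 to 128300823. All 6 are protein-coding.

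The deposited unit is log2(FPKM + 1), where FPKM is a fragment count scaled by transcript length and library size, so levels of different genes are compared per length. Sections were split by number alone at the middle of the numbering, into lower sections (1 to 4 at E5.25, 1 to 5 at E5.5, 1 to 8 at E5.75) and upper sections (6 to 8, 6 to 10 and 10 to 19). Fewer genes were detected in the lower sections. At least 1 FPKM was reached by 2046 to 4282 genes in the lower and 5636 to 6461 in the upper sections at E5.25, by 2288 to 4954 and 5950 to 6467 at E5.5, and by 3211 to 7689 and 6916 to 8217 at E5.75. Rn45s, the ribosomal RNA precursor, took 26.5% to 69.8% of the summed FPKM in the lower E5.5 sections and 2.36% to 10.7% in the upper ones. For this reason zeros are reported as listings at 0, and the depth behind each value is unknown because the files hold no counts. Epiblast markers (12 listed, all with values) were higher in sum in the lower E5.75 sections, at 369 to 1043 FPKM against 65.0 to 227 FPKM in the upper sections. Of the 12 tested, 9 were called lower in the upper sections and 0 higher. The 3 not called were Nanog, Utf1 and Pou3f1, and Utf1 was among the highest of the list in sections 18 and 19. Visceral endoderm markers (16 listed) overlapped in sum, with 2.70 to 179 FPKM in the lower and 0.351 to 125 FPKM in the upper sections, but 2 of 14 tested, Amn (2.18 ± 0.69) and Gata6 (1.23 ± 0.41), were called higher in the upper ones. Their sum was lowest in sections 18 and 19, at 0.351 and 2.28 FPKM, against 22.5 to 125 FPKM in sections 10 to 17. Maternal decidua markers summed to 0 to 15.8 FPKM in the lower and 2.50 to 303 FPKM in the upper E5.75 sections, and Cryab (3.38 ± 0.71) and Htra1 (2.43 ± 0.42) of 5 tested were called higher there, as both were at E5.5 (2.60 ± 0.71 and 2.32 ± 0.69). The part of these markers in the members' differences was not tested. The 14 extraembryonic ectoderm genes summed to 9.07 to 56.8 FPKM in the lower and 130 to 308 FPKM in the upper E5.75 sections.

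At E5.25, all 6 members were higher in the upper sections. Elf5 had no signal in sections 1 to 4 (listed at 0) and reached 4.23, 4.49 and 4.11 in sections 6, 7 and 8 on the log2(FPKM + 1) scale. Cdx2 was likewise at 0 in the lower sections and at 3.26, 3.44 and 3.21 in the upper ones. Eomes was the exception among the lower sections, with levels of 1.19, 0.85, 1.11 and 0 against 5.47, 5.44 and 5.74. The other 3 members were listed at 0 in every lower section, so Eomes alone had any signal there. In the upper sections Tfap2c was listed at 3.43, 2.20 and 3.65, Ets2 at 3.40, 3.95 and 3.07, and Tead4, the lowest of the 6 on average, at 1.61, 2.71 and 1.07. No lower section overlapped an upper one for any member, which was also true of 29.3% of the 7148 genes tested.

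The difference between upper and lower sections at E5.25 was 4.76 ± 0.71 for Eomes (log2, SE, 3 sections against 4, adjusted p = 0.00644, limma with Benjamini-Hochberg adjustment over all genes). It was 4.28 ± 0.54 for Elf5 (adjusted p = 0.00628), 3.47 ± 0.51 for Ets2 and 3.30 ± 0.47 for Cdx2. Tfap2c rose by 3.09 ± 0.54 and Tead4 by 1.80 ± 0.45 (adjusted p = 0.0238). All 6 members passed, against 20.3% of genes called higher at this stage, where the median gene was 1.07 higher. Fitted as a straight line over section number, none of the 6 passed (adjusted p = 0.0549 for Elf5 to 0.0905 for Tead4, limma; 0.406% of genes called), although all 6 had an unadjusted p under 0.05. After adjustment for how many genes each section detected, no member passed between upper and lower sections (adjusted p = 0.534 for Elf5, limma), so position and detection cannot be told apart at this stage. The Tead4 call was lost without section 1, 2 or 4 (adjusted p = 0.0603, 0.0543 and 0.0573, limma).

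**Figure D1:**
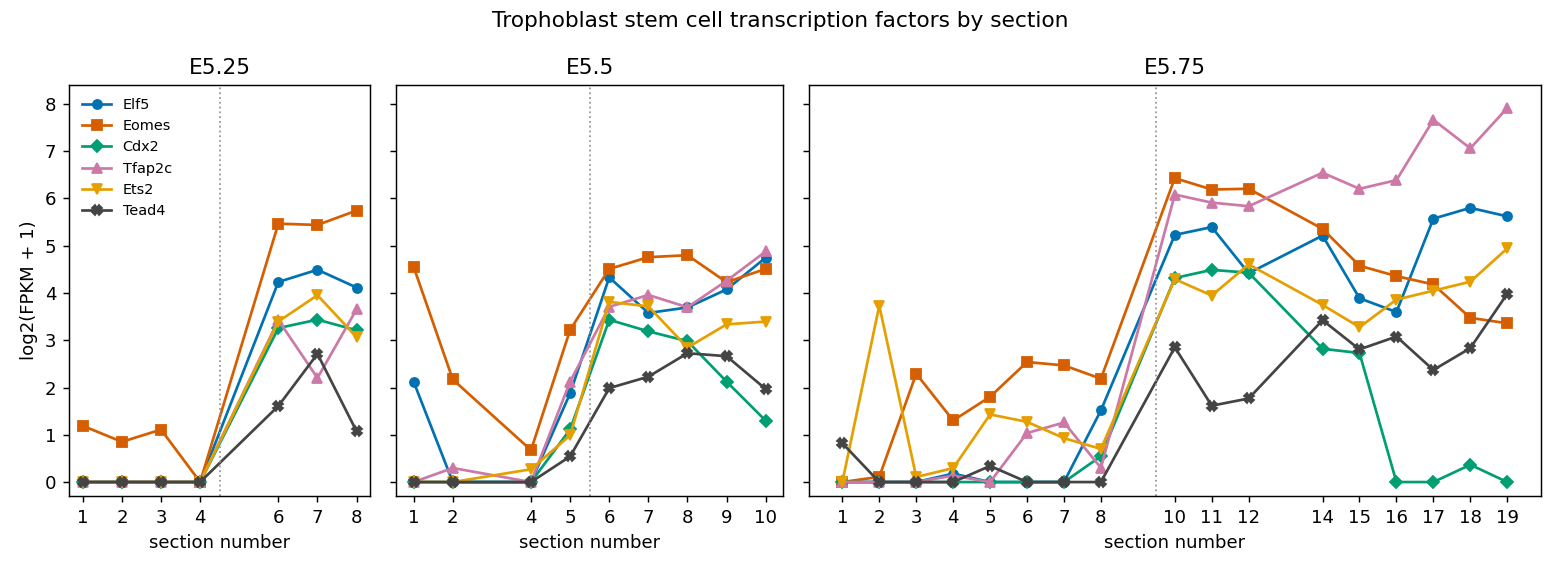
Level of each member in log2(FPKM + 1) on the y axis against section number on the x axis, 1 point per section, for E5.25, E5.5 and E5.75; the dotted line divides lower from upper sections and section numbers without a value are not marked. At E5.75 Eomes goes from 6.43 in section 10 to 3.36 in section 19, Cdx2 from 4.32 to 0, and Tfap2c from 6.08 to 7.91.

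At E5.5, 5 of the 6 members rose from lower to upper sections, and Eomes did not pass. Tfap2c was listed at 0, 0.30, 0 and 2.12 in sections 1, 2, 4 and 5 and at 3.71, 3.96, 3.70, 4.26 and 4.88 in sections 6 to 10. Ets2 stood at 0, 0, 0.27 and 0.99, then at 3.81, 3.72, 2.84, 3.33 and 3.40. Section 5, the last of the lower sections, had the highest lower value of Cdx2 (1.11), Tfap2c, Ets2 and Tead4 (0.54). Elf5 was high in a different lower section as well, at 2.12, 0, 0 and 1.88 in the lower and 4.33, 3.58, 3.69, 4.07 and 4.75 in the upper sections. Cdx2 ran from 3.43 in section 6 to 3.19, 2.98, 2.12 and 1.30 in sections 7 to 10, and Tead4 between 1.97 and 2.72 in the upper sections. Section 10 is the mean of 2 deposited columns, in which Cdx2 was 2.60 and 0, and Elf5 4.43 and 5.06.

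Eomes had the smallest difference at E5.5, with lower sections that ranged widely. It was listed at 4.55, 2.17, 0.67 and 3.22 in sections 1, 2, 4 and 5 and at 4.51, 4.76, 4.80, 4.23 and 4.51 in sections 6 to 10. Section 1 thus overlapped the upper range. The difference for Eomes was 1.91 ± 0.73 (log2, SE, 5 sections against 4, adjusted p = 0.0677, limma), and without section 1 it was 2.54 (adjusted p = 0.00662, limma). Section 1 had the fewest detected genes of the stage, and Rn45s took 69.8% of its summed FPKM. Its visceral endoderm markers summed to 611 FPKM and its maternal decidua markers to 141 FPKM, both the highest of the stage. The part of these markers in its Eomes value was not tested. The other differences were 3.49 ± 0.59 for Tfap2c (adjusted p = 0.0019, limma), 3.11 ± 0.48 for Ets2, 3.08 ± 0.62 for Elf5, 2.33 ± 0.54 for Cdx2 and 2.18 ± 0.41 for Tead4. This set of 5 compares with 24.7% of genes called higher and a median gene 0.76 higher; 22.5% of genes had every upper section above every lower one, as had the same 5 members.

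As a line over section number at E5.5, Tfap2c rose by 5.41 ± 0.89 from the first to the last section (log2, SE, n = 9 sections), Ets2 by 4.23 ± 0.94, Elf5 by 4.18 ± 1.09 and Tead4 by 3.06 ± 0.75. The changes of Cdx2, 2.71 ± 1.02 (adjusted p = 0.0526, limma), and Eomes, 1.97 ± 1.20 (adjusted p = 0.213), did not pass. These 4 of 6 compare with 28.3% of genes called higher, and the median gene changed by 1.22. Genes used widely by all cells moved along the same line: 7 of 9 tested were called higher, among them Gapdh, Actb and Eef1a1, with a median change of 3.30, and their part in the members' changes was not tested. Between upper and lower sections 2 of these 9 were called higher at E5.5, 1 of 9 at E5.25 and 0 of 9 at E5.75. The line passed for Eomes without section 1 (3.79, adjusted p = 0.0294) and for Cdx2 without section 6 or 10 (adjusted p = 0.0393 and 0.0207). Adjusted for detection, none of the 6 lines passed, and between upper and lower sections Elf5 and Eomes did (adjusted p = 0.0407 and 0.0433).

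At E5.75, all 6 members were higher in the upper sections, with Tfap2c, Elf5 and Eomes changing most. Tfap2c ranged from 0 to 1.26 in the 8 lower sections (median 0.068) and from 5.83 to 7.91 in the 9 upper sections (median 6.39). Elf5 ranged from 0 to 1.52 (median 0) and from 3.60 to 5.80 (median 5.23). Eomes was above 0 in 7 of the 8 lower sections, from 0 to 2.54 (median 2.0), and ranged from 3.36 to 6.43 above (median 4.58). Tead4 ranged from 0 to 0.82 (median 0) and from 1.62 to 3.98 (median 2.83). These 4 members did not overlap between upper and lower sections, as 1.79% of the 11149 genes tested did not. Ets2 ranged from 0 to 3.73 (median 0.81) and from 3.28 to 4.94 (median 4.05), and overlapped only through section 2, where it was at 3.73. Cdx2 was listed at 0 in 7 lower sections and at 0.55 in section 8, and it was also at 0 in 3 of the 9 upper sections (highest 4.49).

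The difference between upper and lower E5.75 sections was 6.28 ± 0.41 for Tfap2c (log2, SE, 9 sections against 8, adjusted p = 3.45e-10, limma), the 2nd highest of 11149 genes. It was 4.76 ± 0.42 for Elf5 (adjusted p = 2.7e-08, limma), the 19th highest, and 3.31 ± 0.53 for Eomes (adjusted p = 0.00018, limma). Ets2 rose by 3.05 ± 0.47, Tead4 by 2.60 ± 0.38 and Cdx2 by 2.06 ± 0.64 (adjusted p = 0.0358, limma). Genes called higher made up 10.4% of those tested, and the median gene was 0.447 higher. The calls of the 5 members other than Cdx2 held in all 26 alternatives run, among them the fit adjusted for detection. The Cdx2 call held in 12 of 26 and was lost without section 1, 2, 3, 4, 7, 10, 11, 12, 14 or 15 (adjusted p of up to 0.0648, limma).

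**Figure D2:**
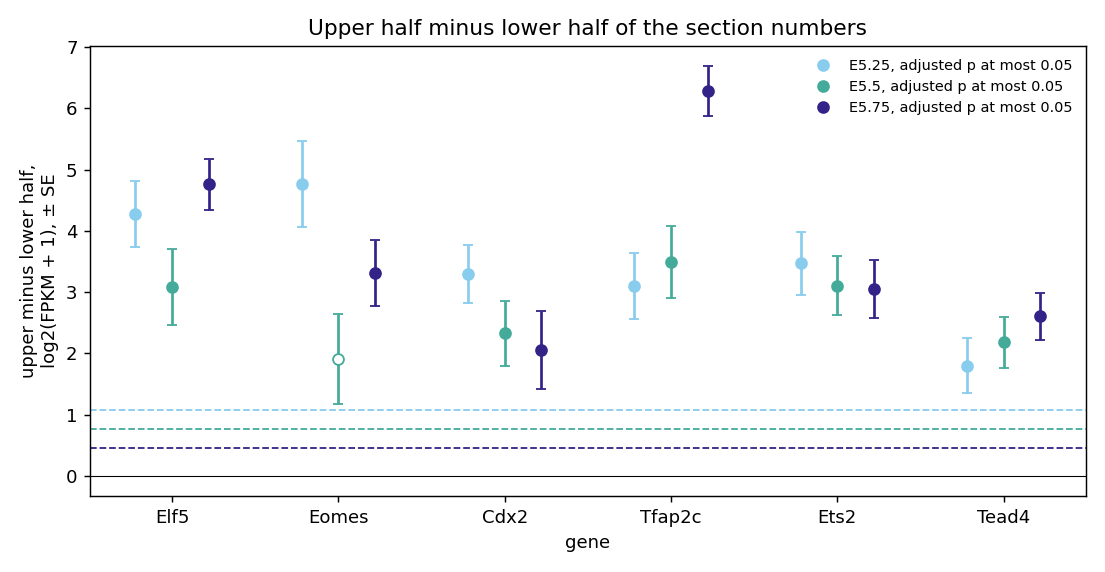
Upper minus lower sections for each member (x axis) at each stage, in log2(FPKM + 1) on the y axis; bars are standard errors, filled points have an adjusted p of at most 0.05, and dashed lines are the median of all genes tested at that stage. Every point lies above its stage's median line, and Eomes at E5.5 (1.91) is the open one.

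As a line over all 17 E5.75 sections, Tfap2c rose by 9.40 ± 0.85 from section 1 to section 19 (log2, SE, n = 17 sections) and Elf5 by 6.86 ± 0.87. The rises were 4.21 ± 0.86 for Ets2, 4.09 ± 1.05 for Eomes and 3.87 ± 0.64 for Tead4. Cdx2 did not pass, at 1.36 ± 1.16 (adjusted p = 0.412, limma). The 5 of 6 members compare with 18.9% of genes called higher and a median change of 0.805. The Eomes line was lost when adjusted for detection (adjusted p = 0.492, limma) and without sections 1 and 2 (adjusted p = 0.0996).

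A curved term asks whether the middle sections lie above the straight line between the ends. Eomes passed it, with the middle 3.41 ± 0.74 above that line (log2, SE, n = 17, adjusted p = 0.0229, limma), while 2.03% of genes passed in that direction and the median gene was at 0.477. Cdx2 was at 3.27 ± 0.92 (adjusted p = 0.0566, limma). For Elf5, Tfap2c, Ets2 and Tead4 the term was smaller than its standard error. The Eomes call was lost without section 10, 11 or 19 (adjusted p = 0.053, 0.0512 and 0.0644, limma) and when adjusted for detection (adjusted p = 0.232).

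Each upper E5.75 section listed at least 5 members above 0, and within these sections the members parted. Eomes and Cdx2 fell with section number, while no fall was called for Tfap2c, Elf5, Ets2 or Tead4. Only Cdx2 was listed at 0 in any of these sections. Eomes was at 6.43, 6.19 and 6.20 in sections 10, 11 and 12, at 5.36, 4.58 and 4.36 in sections 14, 15 and 16, and at 4.18, 3.47 and 3.36 in sections 17, 18 and 19. On the linear scale that is 85.1 FPKM in section 10 and 9.26 FPKM in section 19. Cdx2 was at 4.32, 4.49 and 4.43 in sections 10 to 12, at 2.82 and 2.73 in sections 14 and 15, and at 0, 0, 0.37 and 0 in sections 16 to 19. Cdx2 was therefore absent or nearly so from the listing in the last 4 sections, where Eomes was still present.

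The fitted change from section 10 to section 19 was a fall by 3.33 ± 0.43 for Eomes (log2, SE, n = 9 sections, adjusted p = 0.00176, limma) and by 5.42 ± 0.83 for Cdx2 (adjusted p = 0.00569, limma). Of the 9967 genes tested 0.532% fell, and Cdx2 had the 6th and Eomes the 55th lowest change of all. Both calls held in all 17 alternatives, including the fit adjusted for detection and the removal of each section in turn. These sections listed 6916 to 8217 genes at 1 FPKM or more, with the fewest in section 19. Of 7 epiblast markers tested within them 2 fell, Dnmt3b (-2.43 ± 0.49) and Pou3f1 (-5.12 ± 0.60). Cd52, the 1 blood and leukocyte marker tested, rose by 4.86 ± 0.97 (adjusted p = 0.0221, limma) and was at 0 in sections 10 to 15 and at 2.0, 3.67, 3.12 and 4.98 in sections 16 to 19, the stretch in which Cdx2 was at or near 0. The part of these markers in the result was not tested.

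Tfap2c was at 6.08, 5.91 and 5.83 in sections 10 to 12, 6.54, 6.20 and 6.39 in sections 14 to 16, and 7.66, 7.06 and 7.91 in sections 17 to 19. Its fitted change of 1.83 ± 0.45 did not pass (adjusted p = 0.0541, limma; 1.13% of genes rose and the median gene changed by 0.136), and it passed without section 15 or 16 (adjusted p = 0.0355 and 0.0408). Elf5 was at 5.23, 5.39 and 4.42, then 5.21, 3.89 and 3.60, then 5.57, 5.80 and 5.62, with a fitted change of 0.38 ± 0.71 (adjusted p = 0.859). Tead4 changed by 1.24 ± 0.73 (adjusted p = 0.45) and Ets2 by 0.22 ± 0.58 (adjusted p = 0.909). The sign of the Elf5 and Ets2 changes turned under other scalings, so no direction is given for them.

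**Figure D3:**
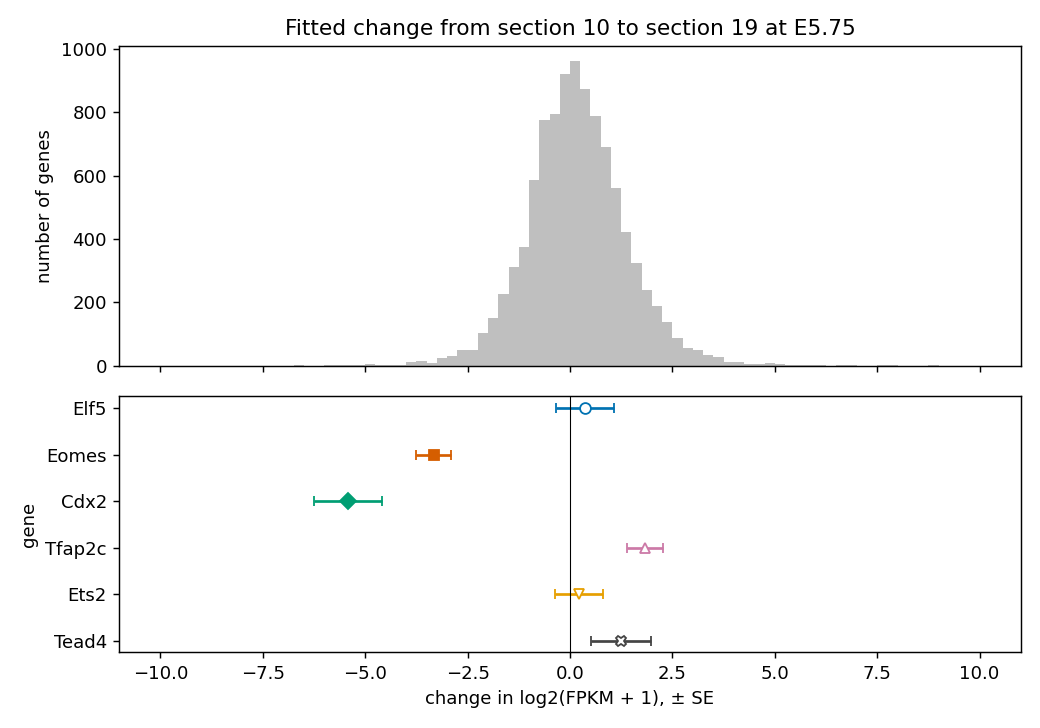
Fitted change in log2(FPKM + 1) from section 10 to section 19 at E5.75 on the x axis, as a histogram of all 9967 genes tested (top, y axis number of genes) and for each member with its standard error (bottom). Filled symbols passed at an adjusted p of 0.05: Cdx2 at -5.42 and Eomes at -3.33 lie in the left tail, and the 4 open members lie between 0.22 and 1.83.

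The member listed highest was Eomes in some upper sections and Tfap2c in others. Tfap2c minus Eomes was -0.35, -0.28 and -0.37 log2 units in sections 10 to 12, and 1.19, 1.63, 2.03, 3.48, 3.59 and 4.55 in sections 14 to 19. The sign therefore changed between sections 12 and 14, and the difference was larger in each later section than in the one before. At E5.25 the same difference was -2.04, -3.24 and -2.09 in sections 6 to 8, and at E5.5 it was -0.80, -0.80, -1.10, 0.03 and 0.37 in sections 6 to 10. Eomes led in all 3 upper E5.25 sections, in sections 6 to 8 at E5.5 and in sections 10 to 12 at E5.75. Tfap2c led in section 9 at E5.5, in the mean of the 2 columns of section 10, and in sections 14 to 19 at E5.75. It was the highest member in neither column of E5.5 section 10. Eomes was at 4.86 against 4.71 for Tfap2c in 1 column. In the other, Elf5 was at 5.06, Tfap2c at 5.05 and Eomes at 4.16. The E5.5 differences in sections 9 and 10 are smaller than the SD of Tfap2c over 5 sections (0.49, and 0.23 for Eomes). These SDs include any change with section number, and the error of a difference within 1 section is not known. Whether the slopes of both genes differ was not tested, and levels of different stages come from tables scaled separately. In bulk pieces like these, fewer cells of a type and less RNA per cell cannot be told apart.

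**Figure D4:**
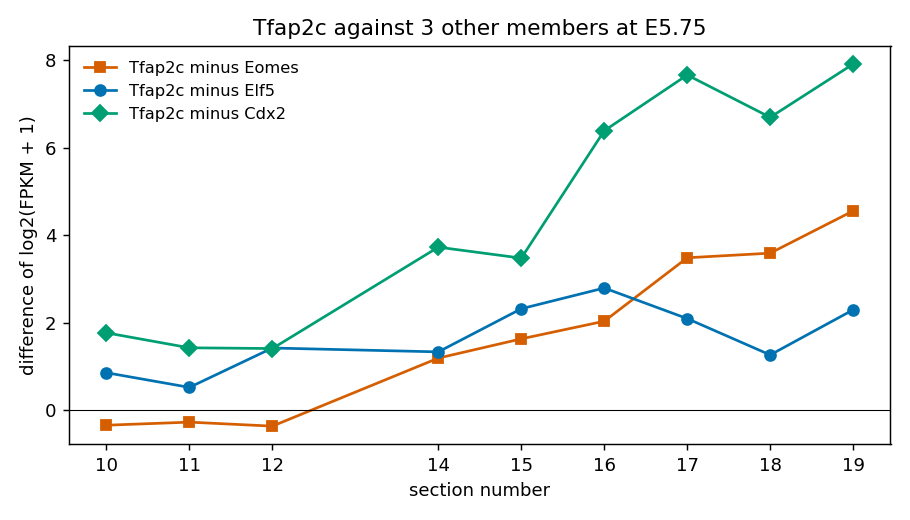
Difference of log2(FPKM + 1) between Tfap2c and Eomes, Elf5 or Cdx2 on the y axis, against section number of the upper E5.75 sections on the x axis, 1 point per section. The Eomes line crosses 0 between sections 12 and 14 and reaches 4.55 in section 19.

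The lowest member in each upper section was Tead4 or Cdx2, except in section 7 at E5.25, where it was Tfap2c (2.20). Mean levels over the upper E5.75 sections were 6.62 ± 0.76 for Tfap2c (SD, n = 9 sections), 4.97 ± 0.80 for Elf5, 4.90 ± 1.18 for Eomes, 4.11 ± 0.49 for Ets2, 2.75 ± 0.75 for Tead4 and 2.13 ± 2.04 for Cdx2. The means of Elf5 and Eomes lay within their spread, as did those of Tead4 and Cdx2, but this spread includes changes with section number. The spread of Ets2 also overlapped those of Elf5, Eomes and Cdx2, and that of Tfap2c overlapped that of Eomes, so much of this order is not resolved. Elf5 minus Eomes was -1.79 to -0.14 in sections 10 to 16 and 1.39, 2.33 and 2.26 in sections 17 to 19. Cdx2 was above Tead4 in sections 10 to 12 and below it in sections 14 to 19. At E5.25 the order of the upper means was Eomes (5.55 ± 0.17, n = 3), Elf5 (4.28 ± 0.19), Ets2 (3.47 ± 0.45), Cdx2 (3.30 ± 0.12), Tfap2c (3.09 ± 0.78) and Tead4 (1.80 ± 0.84). Of these, Ets2, Cdx2 and Tfap2c overlap within their spread, and Tfap2c also overlaps Tead4, which was above it in section 7. At E5.5 Eomes (4.56 ± 0.23, n = 5), Tfap2c (4.10 ± 0.49) and Elf5 (4.08 ± 0.48) lay within their spread of one another. The means of Ets2 (3.42 ± 0.38), Cdx2 (2.60 ± 0.88) and Tead4 (2.31 ± 0.36) were lower, but Ets2 overlapped Tfap2c and Elf5 within the spread. Cdx2 likewise overlapped both Ets2 and Tead4.

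Onset was taken as the lowest-numbered section from which every later one reached 1 FPKM. At E5.25, where section 5 has no value and the onset could lie there, it was section 6 for all 6 members. With a threshold of 5 FPKM it was section 8 for Tfap2c at that stage, and Tead4 had no lasting onset. At E5.5 it was section 5 for Elf5, Eomes, Cdx2 and Tfap2c, and section 6 for Ets2 and Tead4. At E5.75 Eomes came first, at section 3, followed by Elf5 at section 8 and by Tfap2c, Ets2 and Tead4 at section 10. Cdx2 reached 1 FPKM in section 10 and had no lasting onset, since it was below 1 FPKM from section 16 on. With a threshold of 5 FPKM the Eomes onset at E5.75 was section 10, with Elf5, Tfap2c and Ets2, and that of Tead4 was section 18. At E5.5 the same threshold gave section 6 for Elf5, Tfap2c and Ets2 and no lasting onset for Cdx2 and Tead4, and Eomes stayed at section 5. With a threshold of 0.5 FPKM, Ets2 moved to section 5 at both E5.5 and E5.75, there ahead of Elf5. Eomes moved to section 1 at E5.5, and the other onsets did not move.

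Peaks also separated at E5.75. Eomes peaked in section 10 and Cdx2 in section 11, while Elf5 peaked in section 18 and Tfap2c, Ets2 and Tead4 in section 19. The margin of the Cdx2 peak over the next section was 0.059 log2 units and that of Eomes 0.22, so the exact section is not resolved among sections 10 to 12. At E5.25, Elf5, Cdx2, Ets2 and Tead4 peaked in section 7, and Eomes and Tfap2c in section 8. At E5.5, Cdx2 and Ets2 peaked in section 6, Eomes and Tead4 in section 8, and Elf5 and Tfap2c in section 10.

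Partners of the network were taken from a list of 12 further trophoblast stem cell regulators. Over all genes, 10.4% were called higher and 2.1% lower between upper and lower E5.75 sections, and 1.13% and 0.532% within the upper sections; the counts of this and the following lists read against those shares. Of 11 partners tested between upper and lower sections, 6 rose and none fell (median change 1.89, against 0.447 for all genes). Id2, an inhibitor of helix-loop-helix factors, rose by 5.31 ± 0.64, Gata3, a zinc-finger factor of trophoblast, by 3.79 ± 0.40, Zfp42 (Rex1) by 3.48 ± 0.52 and Gata2 by 2.38 ± 0.67. Within the upper sections 3 of the 11 fell and Gata2 rose, by 5.26 ± 1.0. Among those that fell, and named after their values were seen, were Sox2 (-5.93 ± 0.95), a stem cell factor shared with the epiblast, and the nuclear receptor Esrrb (-4.35 ± 0.95). Esrrb was at 4.35, 3.73 and 2.73 in sections 10 to 12 and at most 0.73 in every later section. In sections 14 and 15 it was at 0, where Cdx2 was still at 2.82 and 2.73. Sox2 was at 4.98, 4.65 and 4.39 in sections 10 to 12, at 1.05 in section 14 and at 0 from section 15 on.

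In the FGF list, the ligand gene Fgf4 and the receptor gene Fgfr2 had opposite places. Fgf4 was at 0 in section 1, at 4.44, 3.37, 4.66, 4.20, 3.60, 3.44 and 2.30 in sections 2 to 8, at 0.31 in section 10 and at 0 beyond, and its difference was -3.22 ± 0.50. Fgfr2 was at most 0.44 in the lower sections, at 4.50 in section 10 and at 3.44 in section 19, a difference of 4.10 ± 0.33. Fgfr2 was thus present in all upper sections, both those with and those without Cdx2. A further receptor gene, Fgfr1, was not called. It was at 0 in section 1, at 2.17 to 3.75 in sections 2 to 8 and at 0.50 to 3.62 in the upper sections. Of 15 genes tested 3 rose, against 10.4% of all genes, with Map2k1 (2.11 ± 0.55), a kinase of the pathway, among them, and 3 fell, against 2.1%, with Dusp6 (-1.88 ± 0.51), a phosphatase that FGF signalling induces. Within the upper sections Dusp6 alone passed of 13 tested, with -3.44 ± 0.72.

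The Hippo list was near the share over all genes between lower and upper E5.75 sections: 2 of 17 genes rose (11.8%, against 10.4%) and none fell. The 2 were Tead1 (1.76 ± 0.36) and Tead3 (1.31 ± 0.30), both relatives of Tead4. A further relative, Tead2, was not called, and ranged from 1.07 to 6.48 in the lower and from 2.38 to 5.09 in the upper sections. Amot, a scaffold protein of the pathway that was named after its value was seen, was the 1 gene of 17 to pass within the upper sections (3.29 ± 0.69). Among relatives of the members, 6 of 13 tested rose, including the ETS-family genes Elf3 (3.34 ± 0.51), Elf4 (1.94 ± 0.38) and Elf2 (1.71 ± 0.42) and the AP-2 gene Tfap2a (1.89 ± 0.42). The lists share genes: Tead1 and Tead3 are counted in the Hippo list too, and Tfap2a among the partners. Within the upper sections 1 of 12 passed, the T-box gene T, which fell, also named after its value was seen.

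Target and signal genes of the extraembryonic ectoderm rose in 9 of 14 cases at E5.75 and fell in 1, Nodal (median change 2.01). Ddah1 rose by 5.21 ± 0.43, the Wnt ligand Wnt7b by 4.37 ± 0.37, Tex19.1 by 2.41 ± 0.44 and the protease gene Furin by 1.40 ± 0.36. Within the upper sections 2 of 13 fell, both named after their values were seen: Sox21 (-5.53 ± 0.83) and the signalling ligand Bmp4 (-4.88 ± 1.12). Ectoplacental cone and giant cell genes rose in 6 of 11 cases between lower and upper sections, and 7 of 11 rose with section number within the upper sections, where none fell. Phlda2 rose by 6.53 ± 0.59 there, the keratin Krt8 by 4.0 ± 0.52, Hand1, a factor of giant cell differentiation, by 2.94 ± 0.54 and Krt18 by 1.99 ± 0.37. The median change of this list within the upper sections was 2.94, against 0.136 for all genes. Of the decidual markers, 0 of 4 tested passed within the upper sections (limma), where Cryab changed by 3.34 ± 1.5 (adjusted p = 0.298) and the leukocyte marker Cd52 rose; their part in these results was not tested.

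The genes whose E5.75 profile was most like each member's were ranked by Pearson's r over 17 sections among 3936 genes, as a description across sections that share libraries and the step between lower and upper sections. For Tfap2c these were Tinagl1 (0.987), Irx2 (0.983), Gata3 (0.980), Igf2 (0.979) and Sfmbt2 (0.979). For Elf5 they were among others Anxa5 (0.975), Ddah1 (0.973), Tinagl1 (0.962) and Perp (0.960). For Cdx2 they were Rtn1 (0.947), Bmp4 (0.866), Efna4 (0.855), Prss50 (0.832) and Fbxo21 (0.825), and Rtn1, Bmp4 and Efna4 were, like Cdx2, listed at 0 in some upper section. For Eomes they were Cpne3 (0.939), Rbm38 (0.927), Prss50 (0.918), Morc4 (0.913) and Rhox4b (0.904), each highest in section 11 or 12. Tead4 was most like Elovl1 (0.936) and Sfmbt2 (0.935), and Ets2 most like Hic2 (0.930) and Lgmn (0.908). Among the members, Eomes and Cdx2 had r = 0.932 over the 9 upper sections and Eomes and Tfap2c r = -0.822, where over all 17 sections the values were 0.816 and 0.795. Elf5 and Tfap2c had r = 0.965 over all sections and 0.531 over the upper ones.

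The VE libraries were set against the other libraries of sections 6 and 7. Their markers differ from each other, so the values describe these libraries and not the tissue. Elf5, Cdx2 and Tead4 were listed at 0 in both VE libraries and in both other libraries of these sections. Eomes, which also acts in the visceral endoderm, was at 4.19 and 2.82 in VE against 2.54 and 2.47, a difference of 1.0 ± 0.71 that did not pass (log2, SE, 2 libraries against 2, adjusted p = 0.342, limma). Tfap2c was at 3.36 and 0 against 1.04 and 1.26, and Ets2 at 5.19 and 0 against 1.27 and 0.93; neither passed. None of the 3 members tested passed, at an unadjusted p under 0.05 either, while 57.2% of 6413 genes did, and the median gene was -2.09 (lower in VE). Leaving out either VE library leaves 1 in that group, which is then assumed to vary like the 2 other libraries, and most genes were called in those fits (5624 of 6181 without the VE of section 7 and 5323 of 6257 without that of section 6). Tfap2c was 2.21 in the first and -1.15 in the second, Eomes 1.69 and 0.32, and nothing is read from their calls.

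The VE libraries differed from each other in their markers. That of section 7 listed Amn at 7.71, Apoa1 at 7.01, Ttr at 6.44 and Apob at 5.53, together with the epiblast gene Pou5f1 at 6.73. That of section 6 listed Amn, Ttr and Pou5f1 at 0, Gata6 at 5.12, Apob at 3.55 and Apoa1 at 2.23. Hnf4a, Foxa2 and Gata4 were at 0 in both. They held 1496 and 2147 detected genes, with 62.2% and 48.8% of the summed FPKM in Rn45s, and their zeros are listings only.

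**Figure D5:**
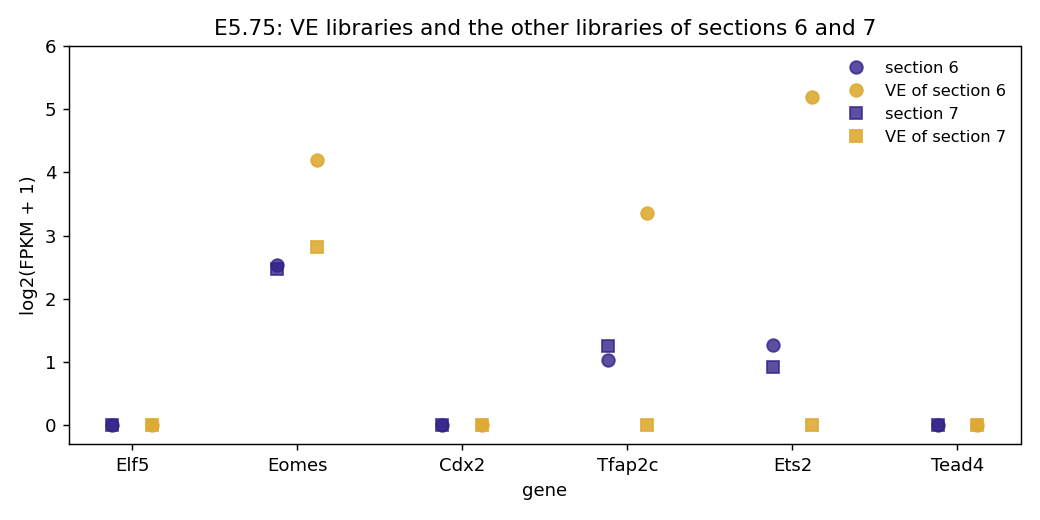
Level of each member in log2(FPKM + 1) on the y axis in the VE libraries (yellow) and the other libraries (blue) of E5.75 sections 6 (circles) and 7 (squares). Eomes has signal in all 4 libraries, Tfap2c and Ets2 are at 0 in the VE of section 7, and Elf5, Cdx2 and Tead4 are at 0 in all 4.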

How the data were processed

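RNA from laser-captured sections was sequenced with the Smart-seq2 protocol, per the labels. TopHat2 2.0.4, Cufflinks 2.0.2 and build mm10 appear in the submitters' processing notes without their roles. The deposited values, 1 table per stage, are FPKM on a log2 scale, which the authors normalized by a step not given in the sources used here. They were read as log2(FPKM + 1) from the table names and the values. The E5.5 table holds 1 deposited column for each of 7 sections with parts A and B; how these were joined is not stated. Columns for parts A and B of section 10 were averaged, and the source name of part B gives section 11 instead. E5.75 sections 9 and 13 were not used here.

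A gene was tested if 2 or more of a fit's samples reached 1 FPKM. Tests used limma 3.58.1 in R 4.3.3 (2-sided, eBayes with a mean trend), and p-values were adjusted by Benjamini-Hochberg over all genes of a stage, with a threshold of 0.05. For lines, section numbers ran from 0 (lowest) to 1 (highest). A pseudocount of 1 is in the deposited unit, so changes of low genes are understated. VE was set against the remaining libraries of its sections, 6 and 7, without a block; the section numbers mark positions. Fits were tested on simulated data, with changes put only into genes of high mean level. That test therefore does not cover low genes with many values at 0, such as Cdx2 and Tead4. The files hold no counts, so depth and its precision are unknown. Other settings tried were a pseudocount of 0.1 or 5, a filter at 5 FPKM or none, quantile normalization, rescaled sums, no eBayes trend, a covariate for detected genes, and fits without single sections or pairs of them.

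The members and gene lists were chosen with earlier results of these data known. Genes were named by rule: the 6 members, up to 4 genes per list with the smallest p along the E5.75 sections, and the 5 genes most correlated with each member (named genes with a mean of 5 FPKM or more and 1 FPKM or more in 4 sections). Some genes that the rule or a count would name are not reported here. Plots were made in Python 3.11.15 with matplotlib 3.10.9.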

Additional observations from a re-analysis of the deposited data

Results flagged for a closer look

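In 7 of 25 groups of sections tested, 1 section lay far from the others of its group by Dixon's ratio. In 3 of the 7 every other section was at 0, so any value above 0 would have been picked out, and the rate of about 1 in 20 groups that chance gives does not hold for groups with many values at 0. The values are therefore a description. At E5.5, section 5 stood above the other lower sections for Cdx2 (1.11 on the log2 scale, the others at 0), Tfap2c (2.12) and Tead4 (0.54). At E5.75, section 8 stood above the other lower sections for Elf5 (1.52) and Cdx2 (0.55). Sections 5 and 8 are the last lower sections of their stages. Ets2 was at 3.73 in section 2 of E5.75, and Tead4 at 0.82 in section 1. Sections 1 and 2 listed 3211 and 3424 genes at 1 FPKM or more, the fewest of that stage.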

How the results depend on the processing

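With a covariate for detected genes, 0 of the 6 members passed between E5.25 upper and lower sections, 0 along E5.5, 2 between E5.5 upper and lower sections and 0 for the E5.75 curve. Quantile normalization left 2 between E5.25 upper and lower sections. Leaving out sections 1 and 2 left 2 along E5.5 and 0 for the curve. Along E5.25, 4 members passed with a pseudocount of 0.1, 5 with a filter at 5 FPKM and 5 with eBayes without trend. For the curve, 2 passed with a pseudocount of 0.1, 2 with the filter at 5 and 2 after rescaling, and 0 with a pseudocount of 5. Leaving out 1 section at a time gave 0 to 5 members along E5.25, 5 to 6 between its upper and lower sections, 4 to 5 and 5 to 6 at E5.5, 5 and 5 to 6 at E5.75, 0 to 2 for the curve, 2 to 3 within the upper sections, and 0 to 3 for VE. In the VE fit with section as a replicate block 0 members passed, as without it. Without sections 1 and 4, an alternative chosen after seeing the data, 4 members passed between E5.25 upper and lower sections. The causes were not tested.

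Signs that turned belong to changes that did not pass in the reported fit. Cdx2 along E5.5 was -1.33 with detected genes as a covariate. Within the upper E5.75 sections Elf5 was -0.013 after rescaling and -0.093 after quantile normalization, and Ets2 -0.16 and -0.063, with -0.32 (without section 19) to 0.48 when 1 section was left out. For the curve, Tfap2c was -0.23 and Ets2 -0.14 with a pseudocount of 5, Ets2 -0.20 after quantile normalization, and Tead4 0.71 with detected genes as a covariate and 0.24 without sections 1 and 2. Leaving out 1 section at a time gave curve values of -0.22 to 0.99 for Tfap2c, below 0 without section 10 or 11, and of -0.33 to 0.90 for Ets2, below 0 without section 1, 3, 10, 11, 12 or 18. Tfap2c in VE was -0.44 with a pseudocount of 0.1, and -1.15 to 2.21 when 1 library was left out.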
